A study of Mus musculus with 6 samples.

Results

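The Polycomb repressive complex genes described here are 10 genes chosen by symbol: Ezh1, Ezh2, Eed, Suz12 and Jarid2 of complex PRC2, and Bmi1, Rnf2, Ring1, Cbx7 and Cbx8 of complex PRC1. All 10 were found among 21135 listed genes, and all 10 were among the 17815 genes tested, which had a mean of at least 10 normalised reads over the 6 libraries. RNA was sequenced from DN3 thymocytes of C57BL/6 mice, the CD4- and CD8-negative stage of the thymus at which the T-cell receptor beta gene is rearranged. The 3 wild-type libraries carried an intact NMe, a distal enhancer of Myc, and in the 3 mutant libraries both alleles of NMe had GATA sites 1 and 2 mutated. No other allele or treatment is named in the labels, nor are the age of the mice or whether libraries came from separate animals.

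Polycomb complexes keep genes silent by marking histones. PRC2 methylates lysine 27 of histone H3 through Ezh2 or Ezh1, with Eed and Suz12 as the subunits that make the enzyme active and stable. PRC1 attaches ubiquitin to histone H2A through Rnf2 or Ring1, and its canonical form is brought to the methyl mark by a Cbx protein. In early T cells these complexes are known for repressing the Ink4-Arf locus and genes of other lineages.

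Recovered reads came to 38.6 to 51.3 M per library, and the values below are read counts divided by the authors' size factor of each library. Myc, on which NMe acts, was at 18041, 19223 and 20196 in the wild type and at 5562, 4612 and 6165 in the mutant. It fell 3.52-fold (limma adjusted p = 4.22e-05). DN3 markers were abundant, their 8 listed genes summing to 247811 to 271532 in the wild type and 344768 to 396226 in the mutant. Of them 5 rose and 1 fell with limma, where 7.94% of all tested genes were called higher and 10.9% lower. The 4 markers of gamma-delta T cells all rose (sums of 13686 to 17905 in the wild type and 24925 to 32692 in the mutant), and 3 of 6 markers of earlier progenitors fell with 0 risen (4350 to 5203 and 2607 to 3801). Wild type replicate 2 held 6509 summed normalised reads of 3 erythroid markers, against at most 53.8 in any other library. Leaving it out gave no call among the 10 genes, while 1905 of all 17815 tested genes were called, against 3352 with it. Markers of B cells and myeloid cells did not pass the test, and the myeloid genes Csf1r and Adgre1 were each at 0 in at least 1 library. Others on these lists were present in every library, Cd79b at 2346 to 3833 and Lyz2 at 1092 to 2017 normalised reads. Of dendritic markers 1 of 2 tested fell and of stromal markers 1 of 3 rose. The part of these marker changes in the Polycomb values was not tested, and in bulk RNA fewer cells of a type and less RNA per cell cannot be told apart.

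None of the 10 genes passed the test between mutant and wild type. The count was 0 risen and 0 fallen with limma (two-sided, Benjamini-Hochberg adjusted p under 0.05 over all genes tested), where 18.8% of all tested genes were called. At an unadjusted p under 0.05 the count was 1 of 10, Eed, against 33.3% of all genes. The edgeR test called 0 of the 10, with 18.4% of all genes called, and DESeq2 called 1, again Eed, with 23.4%. The libraries of the genotypes did not overlap for 1 of the 10 genes, against 38.3% of all genes. The median log2 change of the 10 was 0.03, as it was over all genes (0.03). Their median absolute log2 change was 0.14 with a median standard error of 0.13, and the same medians over all genes were 0.33 and 0.19.

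**Figure D1:**
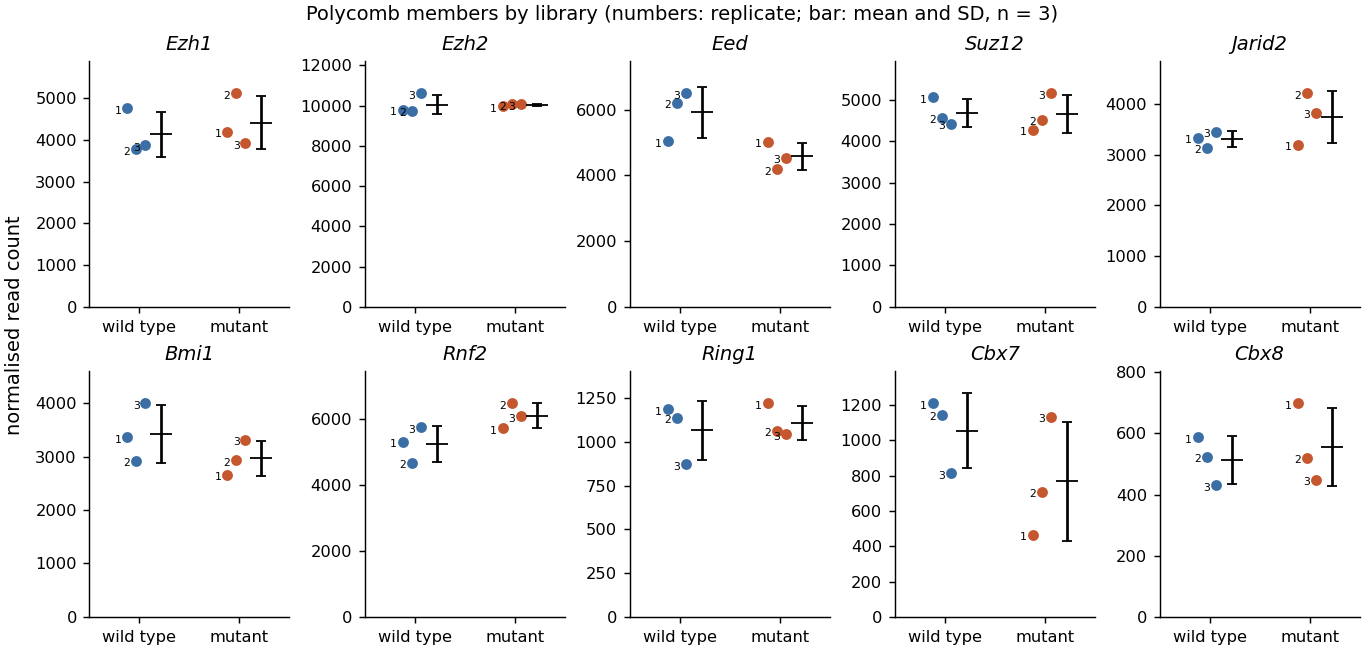
Normalised read count (vertical axis, from 0) of each of the 10 Polycomb genes in the 3 wild-type and 3 mutant libraries; points are libraries numbered by replicate, and bars are the mean and SD over 3 libraries. The genotypes overlap in each panel except that of Eed, where the lowest wild-type library (5044) lies just above the highest mutant library (5020).

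Ezh2 encodes the main methyltransferase of PRC2 in dividing cells (chromosome 6, 47530139 to 47595341 on GRCm38). It was at 9802, 9746 and 10621 in the wild type and at 9968, 10066 and 10058 in the mutant. The mutant libraries lay inside the wild-type range. The fitted log2 change was -0.0026 ± 0.09 (standard error), and its 95% interval ran from 12.6% lower to 14.0% higher (limma adjusted p = 0.986). Of the 10 genes it had the smallest standard error.

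Ezh1, the paralogue with weaker methyltransferase activity that persists in cells that do not divide (chromosome 11, 101191115 to 101226463), was at 4763, 3781 and 3877 in the wild type and at 4197, 5126 and 3927 in the mutant. One library of each genotype stood high, wild type replicate 1 and mutant replicate 2, and the groups overlapped. The log2 change was 0.09 ± 0.13 (interval -0.21 to 0.39, limma adjusted p = 0.674).

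Eed, the subunit that binds the finished methyl mark and stimulates the enzyme (chromosome 7, 89954654 to 89980983), came nearest to the threshold. It was at 5044, 6212 and 6506 in the wild type and at 5020, 4194 and 4542 in the mutant. All 3 mutant libraries lay below all 3 wild-type libraries, narrowly so between wild type replicate 1 and mutant replicate 1. The log2 change was -0.36 ± 0.12 (interval -0.64 to -0.09), with a limma adjusted p of 0.0644. Eed was called with DESeq2 (adjusted p = 0.0373), with limma's library weights (0.0304) and without wild type replicate 1 (limma adjusted p = 0.0333), and in none of the remaining alternatives among 19, where the adjusted p reached up to 0.195.

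Suz12, the scaffold of PRC2 (chromosome 11, 79993106 to 80034123), was at 5064, 4568 and 4418 in the wild type and at 4286, 4518 and 5166 in the mutant. The groups overlapped over nearly their whole range, with a log2 change of -0.01 ± 0.11 (interval -0.25 to 0.23, limma adjusted p = 0.957). Suz12 shares 178 exon bases with the lincRNA Gm26563 on the opposite strand, which had a log2 change of 0.48 ± 0.34. Jarid2, an accessory subunit that helps to bring PRC2 to chromatin (chromosome 13, 44729474 to 44921643), was at 3334, 3141 and 3452 in the wild type and at 3193, 4213 and 3828 in the mutant. Mutant replicates 2 and 3 lay above the wild type and mutant replicate 1 within it. The log2 change of Jarid2 was 0.17 ± 0.12 (interval -0.10 to 0.44, limma adjusted p = 0.354).

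Among the PRC1 genes, Rnf2 encodes the more widely used of the ubiquitin ligases of histone H2A (chromosome 1, 151458004 to 151500955). It was at 5308, 4671 and 5744 in the wild type and at 5711, 6470 and 6080 in the mutant. The groups overlapped in 1 library of each, wild type replicate 3 and mutant replicate 1, and the log2 change was 0.22 ± 0.11 (interval -0.02 to 0.46, limma adjusted p = 0.184). Rnf2 shares 158 exon bases with Trmt1l on the opposite strand, which had a log2 change of 0.08 ± 0.12.

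Ring1, the paralogous ligase (chromosome 17, 34020792 to 34024680), was at 1187, 1139 and 872 in the wild type and at 1221, 1065 and 1043 in the mutant. Wild type replicate 3 was the lowest of the 6 libraries, and the other five lay close together. The log2 change was 0.07 ± 0.15 (interval -0.27 to 0.40, limma adjusted p = 0.79).

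Bmi1, the ring-finger partner that activates the ligase in canonical PRC1 and a repressor of the Ink4-Arf locus (chromosome 2, 18677018 to 18686629), was at 3364, 2925 and 3998 in the wild type and at 2663, 2934 and 3310 in the mutant. The groups overlapped, with wild type replicate 3 highest and mutant replicate 1 lowest. The log2 change was -0.20 ± 0.14 (interval -0.51 to 0.10, limma adjusted p = 0.334).

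Cbx7, a chromodomain protein that reads the methyl mark (chromosome 15, 79915807 to 79971119), varied most of the 10 genes. It was at 1210, 1143 and 813 in the wild type and at 466, 708 and 1132 in the mutant. Mutant replicates 1 and 2 lay below the wild type and mutant replicate 3 among it. The log2 change was -0.53 ± 0.28 (interval -1.16 to 0.10, limma adjusted p = 0.222). Without mutant replicate 3 it was -0.85 and passed (limma adjusted p = 0.0371), and without mutant replicate 1 it was -0.22 (0.577). Apobec3, on the opposite strand, overlaps the annotated Cbx7 gene and shares 100 exon bases with it. In the mutant its normalised reads stood at 10690, 9784 and 15317, again highest in replicate 3, and its wild-type values were 15107, 15903 and 13944. The library kit does not record strand, so reads over shared bases cannot be assigned to one of them, and the part of Apobec3 in the Cbx7 values was not tested.

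Cbx8, a second chromodomain reader of canonical PRC1 (chromosome 11, 119036305 to 119040969), was at 587, 523 and 431 in the wild type and at 699, 520 and 449 in the mutant. The groups overlapped over much of their range, with a log2 change of 0.10 ± 0.20 (interval -0.34 to 0.54, limma adjusted p = 0.762). It was the least abundant of the 10 genes in the wild type.

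Per kb of annotated exon, the 10 genes spanned a wide range of levels. This scale divides the normalised read count by the length of all annotated exons of a gene, so that genes can be compared roughly. Which of these exons the transcripts present contain was not tested. In the wild type Eed (1547 ± 202 per kb, SD, n = 3) and Ezh2 (1506 ± 73.4) were highest and their libraries overlapped. Rnf2 (1270 ± 131) followed, and its libraries overlapped those of Eed but not those of Ezh2. Suz12 (947.2 ± 68.4) and Bmi1 (862.8 ± 136) came next and overlapped each other, then Ezh1 (556.5 ± 72.8). Jarid2 (340.6 ± 16.2) and Ring1 (328.7 ± 52.3) overlapped, as did Cbx7 (162.7 ± 32.7) and Cbx8 (139.8 ± 21.5) at the bottom. In the mutant Ezh2 (1502 ± 8.16) and Rnf2 (1475 ± 91.9) overlapped at the top, and Eed (1198 ± 108) came below them, with its libraries apart from those of Rnf2.

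**Figure D2:**
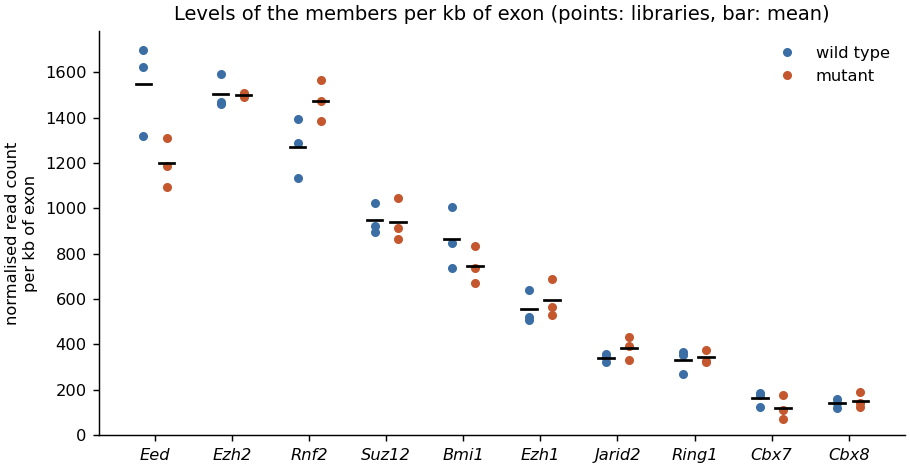
Normalised read count per kb of exon (vertical axis, from 0) of the 10 Polycomb genes, ordered by the wild-type mean; points are libraries (3 wild type, 3 mutant) and bars are means. Eed, Ezh2 and Rnf2 are highest and Cbx7 and Cbx8 lowest in both genotypes.

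Several of these genes are paralogues that fill the same place in a complex, and their ratio within a library does not depend on the scaling between libraries. Ezh2 exceeded Ezh1 per kb in every library, by 2.29, 2.87 and 3.05 times in the wild type and 2.65, 2.19 and 2.85 times in the mutant. The difference of the log2 ratio was -0.09 (exact two-sided permutation p = 0.5 over 6 libraries). Rnf2 exceeded Ring1 by 3.51, 3.22 and 5.17 times in the wild type and 3.67, 4.77 and 4.58 times in the mutant, a difference of 0.15 (exact permutation p = 0.6). Bmi1 exceeded its paralogue Pcgf2 by 41.2 to 67.5 times in the wild type and 50.4 to 72.1 times in the mutant, a difference of 0.11 (exact permutation p = 0.7).

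The ratio of Cbx8 to Cbx7 was even in the wild type, at 0.86, 0.81 and 0.94, and spread over 2.64, 1.30 and 0.70 in the mutant. In mutant replicates 1 and 2 Cbx8 exceeded Cbx7, and in replicate 3 it did not. The difference of the log2 ratio was 0.63 (exact two-sided permutation p = 0.4), and the adjusted p of all 4 ratios was 0.7. With 3 libraries against 3 this test cannot give a p below 0.1.

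**Figure D3:**
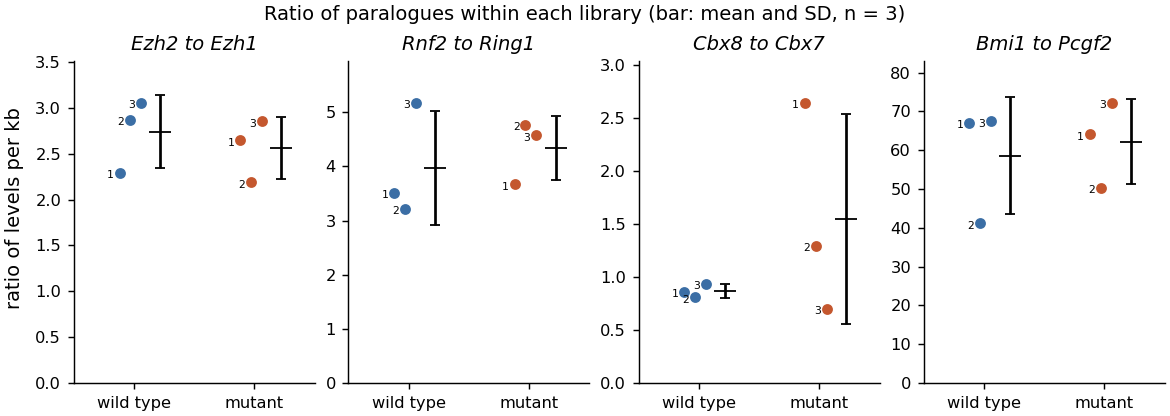
Ratio of the levels per kb of exon of paralogous Polycomb genes (vertical axes, from 0) in each of 3 wild-type and 3 mutant libraries; points are libraries numbered by replicate, and bars are the mean and SD. The genotypes overlap in all 4 ratios, and the mutant libraries spread widely for Cbx8 to Cbx7 (0.70 to 2.64).

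While none of the 10 genes passed, some of their partners did. Of 9 listed genes of PRC2 partners 2 rose and 2 fell, and of 10 canonical PRC1 partners 1 rose and 0 fell, beside 7.94% of all genes called higher and 10.9% called lower (1414 and 1938 genes, or 1827 and 1647 when libraries were scaled to equal totals). The medians were -0.05 and 0.01. These lists, like the 10 genes, were drawn up with earlier results of these data known.

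PRC2 occurs in alternative forms. One carries a Polycomb-like protein (Phf1, Mtf2 or Phf19) with Epop, Lcor or Lcorl, and the other carries Jarid2 with Aebp2. Phf1 was at 632, 671 and 506 in the wild type and at 1379, 1187 and 1184 in the mutant. It rose 2.07-fold, with no overlap between genotypes (log2 change 1.06 ± 0.15, limma adjusted p = 0.00134). Phf1 shares 1370 exon bases with Cuta on the opposite strand, whose log2 change was 0.07 ± 0.13.

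Epop, which links PRC2 to elongin, was at 586, 490 and 488 in the wild type and at 185, 189 and 287 in the mutant. It fell 2.37-fold (log2 change -1.26 ± 0.21, limma adjusted p = 0.00284). Phf1 and Epop each passed under every alternative tried.

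Mtf2, the most abundant of the Polycomb-like genes, was at 40407, 39041 and 40307 in the wild type and at 51049, 51423 and 51627 in the mutant. The libraries of each genotype lay close together and apart from the other group, and Mtf2 rose 1.29-fold (log2 change 0.36 ± 0.08, limma adjusted p = 0.0104). The call was lost without wild type replicate 2 (limma adjusted p = 0.067) and without a variance trend. Phf19, with wild-type libraries at 385 ± 88.3 and mutant libraries at 370 ± 82.8 (SD, n = 3), did not pass (log2 change -0.05 ± 0.23).

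Rbbp7, a histone-binding subunit that PRC2 shares with other chromatin complexes (wild-type libraries at 24516, 25862 and 30518, mutant libraries at 19028, 19760 and 18933), fell 1.4-fold with limma (log2 change -0.48 ± 0.10, adjusted p = 0.00885; 0.0638 without a variance trend). Its paralogue Rbbp4 had a log2 change of -0.28 ± 0.10 and missed the threshold (limma adjusted p = 0.0863). Aebp2, the partner of Jarid2, also missed it (-0.29 ± 0.09, adjusted p = 0.0583), with wild-type libraries at 3481, 3599 and 3697, mutant libraries at 2904, 2942 and 2971, and no overlap. DESeq2 called Aebp2, as did library weights and a mean of at least 50. Lcor (0.37 ± 0.15) and Lcorl (0.24 ± 0.16) did not pass. Mtf2 shares exon bases with Tmed5 and Rbbp7 with Txlng, each on the opposite strand, and neither of those neighbours passed.

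**Figure D4:**
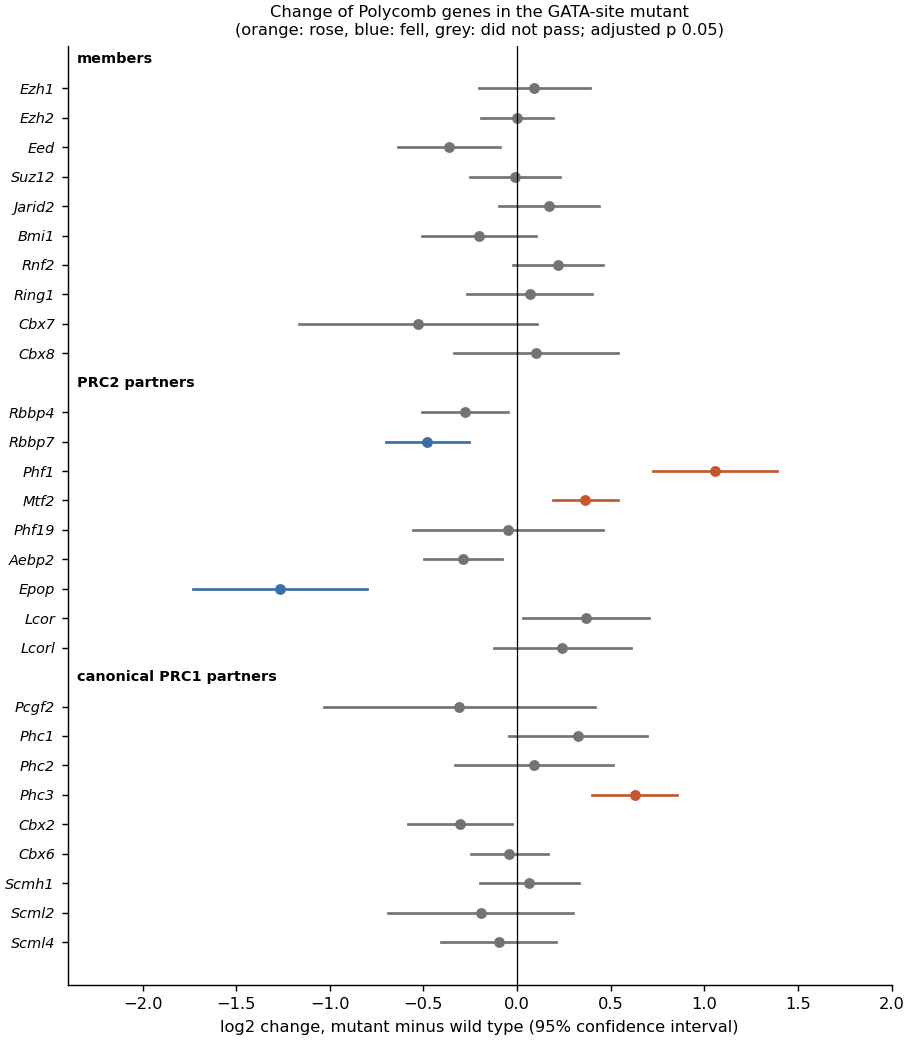
Log2 change of the normalised read count, mutant minus wild type (horizontal axis), with the 95% confidence interval of the limma fit, for the 10 Polycomb genes and the partners of PRC2 and canonical PRC1 that the text names; orange genes rose, blue genes fell and grey genes did not pass. The intervals of 9 of the 10 Polycomb genes include 0 and that of Eed does not, while Phf1 (1.06) and Epop (-1.26) lie farthest from 0.

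In canonical PRC1 the polyhomeotic gene Phc3, whose protein lets complexes join into larger bodies, was at 2459, 2838 and 2785 in the wild type and at 4262, 4008 and 4200 in the mutant. It rose 1.54-fold (log2 change 0.63 ± 0.10, limma adjusted p = 0.00269). Its paralogues Phc1 (0.32 ± 0.16) and Phc2 (0.09 ± 0.19) did not pass. The chromodomain genes Cbx2 (log2 change -0.30 ± 0.13) and Cbx6 (-0.04 ± 0.09) did not pass. Pcgf2 (-0.31 ± 0.33), Scmh1 (0.07 ± 0.12), Scml2 (-0.20 ± 0.22) and Scml4 (-0.10 ± 0.14) did not pass.

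Variant PRC1 complexes pair Rnf2 or Ring1 with other ring-finger partners and act without a Cbx reader of the methyl mark. Of 18 genes on this list 1 rose and 3 fell, beside 7.94% of all genes called higher and 10.9% called lower, and without a variance trend 0 were called higher. Pcgf6, the ring-finger partner in the complex that also holds E2f6, fell 1.52-fold (3186, 3514 and 3209 against 2330, 2281 and 1907, limma adjusted p = 0.00579). E2f6, a DNA-binding repressor, fell 1.35-fold (log2 change -0.42 ± 0.12, limma adjusted p = 0.0318). That call was lost whichever single library was left out (adjusted p 0.0503 to 0.0989), with equal library totals (0.0569) and without a variance trend (0.104). Wdr5, a subunit shared with the trithorax-type methyltransferases, fell 1.51-fold (limma adjusted p = 0.00332). Fbrs rose 1.5-fold (0.60 ± 0.17, adjusted p = 0.0374), and its call was lost without wild type replicate 1 or 3 or mutant replicate 1 or 2 (up to 0.114).

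A list of 10 genes that oppose Polycomb silencing, demethylases of the PRC2 mark and methyltransferases of the trithorax type with their non-enzymatic partners, had 4 risen and 0 fallen, beside 7.94% and 10.9% of all genes. The median log2 change of this list was 0.30, and without a variance trend 0 of the 10 were called higher. Kmt2a, Kmt2c and Kmt2d, methyltransferases of lysine 4 of histone H3, rose 1.5-fold, 1.35-fold and 1.57-fold (limma adjusted p = 0.00712, 0.0119 and 0.0118; without a variance trend 0.0574, 0.0583 and 0.0752). Kmt2a was at 8738, 9802 and 8603 in the wild type and at 15632, 12810 and 12140 in the mutant, without overlap. Kdm6b, which removes the methyl mark that PRC2 lays down, rose 1.41-fold (0.51 ± 0.15, adjusted p = 0.0454), and the call was lost on leaving out any single library (0.0547 to 0.126). Its paralogue Kdm6a had a log2 change of 0.08 ± 0.13 and did not pass. Paxip1, a partner of the methyltransferases, had one of -0.32 ± 0.12 and did not pass either (limma adjusted p = 0.0948), though it was called lower without mutant replicate 3 (0.0339).

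**Figure D5:**
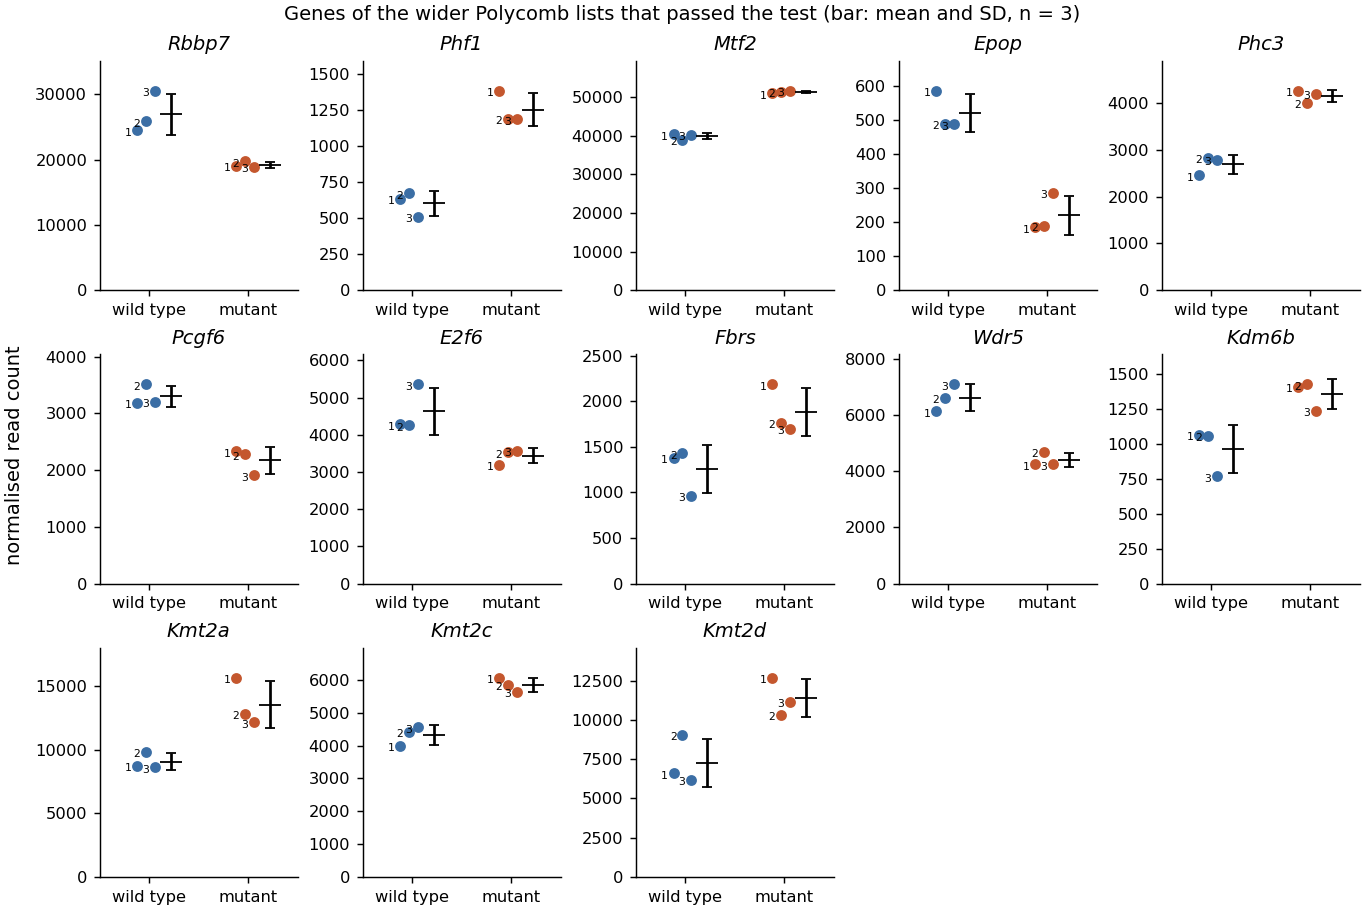
Normalised read count (vertical axes, from 0) of the 13 genes of the wider Polycomb lists that passed the limma test, in 3 wild-type and 3 mutant libraries; points are libraries numbered by replicate, and bars are the mean and SD. The genotypes overlap in none of these panels. Of 57 tested genes on these lists 8 were called higher and 5 lower in the mutant, beside 7.94% and 10.9% of all genes.

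Genes that Polycomb is known to silence were mostly at low levels. Of 39 Hox genes 8 were listed and 7 were tested, and 0 passed with limma or edgeR (2 at an unadjusted p under 0.05, 1 with DESeq2). Over all tested genes the shares were 18.8% with limma, 18.4% with edgeR, 33.3% unadjusted and 23.4% with DESeq2. Hoxa7, the most abundant, was at 727, 747 and 1541 in the wild type and at 924, 1146 and 872 in the mutant, highest in wild type replicate 3. Hoxa9, a gene of early progenitors, stood at 84.8, 57.3 and 265 in the wild type and at 23.2, 60.7 and 38.6 in the mutant. Its groups overlapped, and its log2 change of -1.50 ± 0.55 did not pass (limma adjusted p = 0.0859). The log2 changes of the other 6 tested Hox genes lay from 0.05 to 0.80, highest for Hoxa5 (104, 82.1 and 228 against 212, 247 and 200 normalised reads, limma adjusted p = 0.132). Of 28 other target genes 8 were listed and 3 tested. Beside the shares of all genes given above, 0 passed in limma or edgeR (2 at an unadjusted p under 0.05, 1 with DESeq2). All 3 had low counts and a positive log2 change, with a median of 1.36. Lhx2 (1.36 ± 0.60, limma adjusted p = 0.145) and Foxc1 (1.92 ± 1.00, limma adjusted p = 0.21) did not pass. The cell cycle inhibitor gene Cdkn1c had 52.0, 41.1 and 48.9 normalised reads in wild-type libraries and 93.9, 61.6 and 168 in mutant ones. These did not overlap, but the log2 change of 1.06 ± 0.37 did not pass (limma adjusted p = 0.0768). Cdkn2b of the Ink4 locus was at 4.24, 0.95 and 1.78 normalised reads in the wild type and 5.28, 4.53 and 9.93 in the mutant. Its mean was below the level for testing. Cdkn2a was not among the genes tested.

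MYC binds the palindrome CACGTG, so promoter windows of these genes were searched for it, from 250 bases before to 50 after the start site (RefSeq, GRCm38.p6). It was present in 7.15% of all 32851 windows. The counts that follow are of genes with the motif in any of their windows, and some genes have several. They are therefore not on the same base as that share. Of the 10 Polycomb genes 2 had it, Bmi1 and Cbx8, neither of which passed the test. For PRC2 the partners with a window include Ezhip, whose symbol matched no listed gene, and leave out Epop, which has none. Among partners with a window the motif was found in 2 of 9 for PRC2, 4 of 7 for canonical PRC1 and 1 of 13 for variant PRC1. Of these 7 partners only Phc3 passed, and it rose. The stretches around the motif, in capitals, are shown for both Polycomb genes, for Phc3 and for Rbbp4 of PRC2, since they set the motif beside genes that did and did not pass. They lie upstream of the start site and read 5′ to 3′ on the strand of the gene, at chr2:18676776-18676835 (plus) for Bmi1, chr11:119040979-119041038 (minus) for Cbx8, chr3:30969465-30969524 (minus) for Phc3 and chr4:129335562-129335620 (minus) for Rbbp4.
Bmi1: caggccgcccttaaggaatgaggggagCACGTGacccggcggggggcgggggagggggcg
Cbx8: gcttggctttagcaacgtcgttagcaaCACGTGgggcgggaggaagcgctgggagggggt
Phc3: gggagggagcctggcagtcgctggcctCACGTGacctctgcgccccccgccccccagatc
Rbbp4: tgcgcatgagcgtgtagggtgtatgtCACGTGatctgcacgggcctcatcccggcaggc
The motif begins 215 bases before the start site in Bmi1, 98 in Cbx8, 82 in Phc3 and 224 in Rbbp4. A match describes these letters and does not show binding.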

How the data were processed

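The authors deposited a signal per gene, with 6 columns and 21135 genes, in which reads are scaled by a size factor for each library. The tools named in the submitters' processing notes are DESeq2 1.20.0, featureCounts and STAR 2.5.3, with builds GRCm38 and mm10. Which annotation release, counting options and gene filter applied is not given in the sources used here. Per the labels' protocols, cDNA was made and amplified with a low-input SMART-Seq kit and tagged with Nextera XT, which keep no strand. Dividing each column by its smallest step recovered whole reads for 100% of 126810 values (tolerance 0.1 reads). On these reads edgeR called 3283 genes and DESeq2 4168.

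Genotype was tested with limma 3.58.1 (R 4.3.3, lmFit and eBayes with a trend) on log2(value + 1), as mutant minus wild type. The fit took the 17815 genes whose mean reached 10, with Benjamini-Hochberg adjustment over all of them at 0.05. Fold changes in the text are ratios of mean values, and log2 changes are on the log2(value + 1) scale, which understates changes of rare transcripts. Errors of log2 changes are standard errors. Symbols, positions and exon lengths came from GENCODE M21 on GRCm38, which matched 21100 genes (the other 35 held 0.008% of reads). Levels per kb use the union of annotated exons. The symbol Ezhip matched no gene. Since the labels name no separate animals, the p-values reflect only how these libraries spread, which may be technical, and no columns of other samples were present.

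The 10 genes and all lists were chosen with earlier results of these data known, so their counts carry no test of their own. Named were the 10 genes, the listed PRC2 and canonical PRC1 partners (1 is counted but not reported here), genes past the test on the other lists, and Myc. Target genes, overlapping genes and genes that missed the test on the other lists were named after their values were seen. Alternatives were other pseudocounts, filters, scalings and variance models, library weights, the replicate number as a block, edgeR 4.0.16, DESeq2 1.42.0 and voom on the recovered reads, and leaving out 1 library at a time. The limma fit with a trend, edgeR, DESeq2 and voom were also run on simulated counts. The other alternatives and the permutation test were not.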

Additional observations from a re-analysis of the deposited data

How the results depend on the processing

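The count of 0 calls among the 10 Polycomb genes became 1 with library weights and with DESeq2 (Eed in both) and ranged from 0 to 1 on leaving out 1 library (Eed without wild type replicate 1, Cbx7 without mutant replicate 3). Over all genes 3352 were called, 1916 without a variance trend, and 1905 to 2788 with 1 library left out, lowest without wild type replicate 2. In the wider Polycomb lists 8 of 57 tested genes were called higher and 5 lower, beside 7.94% and 10.9% of all genes (1414 and 1938). Without a trend 2 were called higher, beside 749 of all genes. With library weights 9 were called lower, beside 2309 of all genes. With 1 library left out 6 to 8 were called higher and 4 to 5 lower, beside 819 to 1176 and 1086 to 1780 of all genes. These list counts were added after seeing the data. Of the 54 Polycomb genes and partners that did not pass, 45 passed in no alternative, and of the 13 that passed, 5 did so in all. The log2 differences of the paralogue ratios with 1 library left out ran from -0.22 to 0.02 for Ezh2 to Ezh1, 0.02 to 0.36 for Rnf2 to Ring1, 0.14 to 1.10 for Cbx8 to Cbx7 and -0.13 to 0.25 for Bmi1 to Pcgf2. Deviations of same-numbered libraries showed little correlation (r = -0.02, -0.07 and -0.01). With 3 libraries a group this cannot settle whether the numbers pair them. With the replicate block 3066 genes were called, and 0 of the 10. Where a call changed, the cause was not tested. Of 16 listed target genes 6 had a mean under 10 normalised reads and were not tested.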

Other observations

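The deubiquitinase that removes the PRC1 mark from histone H2A consists of Bap1 with an Asxl protein and several partners. The list for this complex also held Usp16, a separate H2A deubiquitinase gene. Of the 10 listed genes on it 0 passed the limma test (3 at an unadjusted p under 0.05, 0 with edgeR and 0 with DESeq2). The shares of all tested genes were 18.8% with limma, 33.3% unadjusted, 18.4% with edgeR and 23.4% with DESeq2. The median log2 change of the list was -0.07. Bap1 itself was at 10784, 11277 and 10968 in the wild type and at 9062, 9789 and 9441 in the mutant, without overlap, and had a log2 change of -0.22 ± 0.09 (limma adjusted p = 0.0972). Foxk2 (2497, 3129 and 1028 against 1828, 1042 and 2571) and Asxl1 (7148, 7029 and 4010 against 5457, 4557 and 6958) were lowest in wild type replicate 3 and, in the mutant, in replicate 2. Both genes were named after their values were seen.

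Protein-coding genes within 100 kb of the 10 Polycomb genes numbered 46 among those tested, of which 5 rose and 7 fell (26.1%, against 18.8% of all genes). Of them 15 lie beside Ring1, in the histocompatibility region of chromosome 17, where 4 rose and 3 fell. Around Cbx7, on the chromosome that also carries Myc, 0 of 2 tested neighbours passed. The lincRNA Gm26625, which lies on the strand opposite to Ezh2 and shares 174 exon bases with it, was at 10.6, 17.2 and 24.9 in the wild type and at 59.1, 54.3 and 45.2 in the mutant (log2 change 1.60 ± 0.42, limma adjusted p = 0.0244). It was named after its values were seen, and its reads cannot be told from those of Ezh2 over the shared bases.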
